A study of Mus musculus with 2 samples.

Results

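The genes described here are 10 members of the NF-κB pathway: the cytokine gene Tnf, the subunit genes Nfkb1, Nfkb2, Rel, Rela and Relb, and the feedback genes Nfkbia, Tnfaip3, Birc3 and Bcl3. They were chosen by name from the 19465 genes of the files, and all 10 were measured in both sections and passed the filter on low counts. NF-κB proteins bind DNA as dimers and wait in the cytoplasm, held by inhibitor proteins of the IκB family. A cytokine such as TNF, or a Toll-like receptor ligand, leads to the destruction of the inhibitor, and the dimer then enters the nucleus and switches on genes of inflammation and survival. Many of the induced genes encode the pathway's own inhibitors and subunits, so that the response is shaped by feedback. In the brain the pathway is best known from microglia, astrocytes and infiltrating myeloid cells under injury or inflammation, and it is also active in many carcinoma cells.

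The samples were formalin-fixed sections of the cerebellum from 2 mice, used as biological replicates and called section 1 (title HP-F1) and section 2 (title HP-B6). Each cerebellum carried tumors grown from HP breast tumor organoids, which bear a conditional human HER2 V777L transgene under an actin promoter together with PIK3CA H1047R. The parent tumors were started with Cre-expressing adenovirus in the mammary gland, and the organoid cells were then labelled with luciferase, selected as clones and injected stereotactically into the cerebellum of syngeneic C57BL/6J mice, which the methods give as 5 months old. Both mice had the same genotype label and no treatment, so the labels give no groups to compare, and the comparisons are between regions of the same section. What the codes F1 and B6 in the titles mark is not stated. The assay (Visium CytAssist) places probe pairs for each gene on the section and counts ligated pairs by unique molecular identifier (UMI) on a grid of spots, each of which can hold several cells of different types. Levels of different genes depend on their probes and were not set against each other.

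The genes lie on 8 chromosomes. In the RefSeq annotation of GRCm38.p6, Tnf is at chr17:35199367-35202007, Nfkb1 at chr3:135584655-135691969, Nfkb2 at chr19:46300994-46312400, Rel at chr11:23736847-23770969 and Rela at chr19:5637442-5648134. Relb lies at chr7:19606217-19629438 and Bcl3 on the same chromosome at chr7:19808462-19822824, with 179 kb between them. Nfkbia is at chr12:55489409-55492647, Tnfaip3 at chr10:19000910-19015410 and Birc3 at chr9:7847468-7873205.

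Of the 10 genes, 8 matched the RefSeq promoter table, which holds 250 bases before and 50 bases after each start (all but Nfkb1 and Relb). These windows were searched on both strands for the κB consensus, a motif of 10 bases made of GGG, a purine, any 2 bases, a pair of pyrimidines and CC. Matches stood in 5 of the 8 genes (62.5%), against 9.55% of the 27025 genes of the table. The matched stretches are shown because they are the binding motif of the family itself, read from the genes that encode the family and its inhibitors. Each line gives 30 bases in the direction of transcription, 5′ to 3′, with the matched bases in capitals, and overlapping matches are joined.

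Nfkbia, chr12:55492657-55492686, minus strand: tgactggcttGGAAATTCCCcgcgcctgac
Rel, chr11:23771041-23771070, minus strand: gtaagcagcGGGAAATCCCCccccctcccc
Tnfaip3, chr10:19015516-19015545, minus strand: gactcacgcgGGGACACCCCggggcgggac
Tnfaip3, chr10:19015403-19015432, minus strand: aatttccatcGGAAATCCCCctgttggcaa
Bcl3, chr7:19822734-19822763, minus strand: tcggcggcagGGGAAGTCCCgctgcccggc
Nfkb2, chr19:46304689-46304718, plus strand: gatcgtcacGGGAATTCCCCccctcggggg
Nfkb2, chr19:46304716-46304745, plus strand: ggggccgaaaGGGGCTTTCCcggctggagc
Nfkb2, chr19:46305449-46305478, plus strand: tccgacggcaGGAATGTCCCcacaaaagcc
Nfkb2, chr19:46305695-46305724, plus strand: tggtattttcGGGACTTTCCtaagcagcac

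The Nfkbia match lay 29 to 20 bases before the start, that of Rel 92 to 82 bases before it, and that of Bcl3 from 3 to 12 bases after it. The windows of Tnf, Rela and Birc3 held no such letters. To show the wider context, the 250 bases before the start are given for Nfkbia, the gene of the IκBα inhibitor, for Rel and for the start of Tnfaip3 at the 5′ end of the gene.

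Nfkbia, chr12:55492648-55492897, minus strand: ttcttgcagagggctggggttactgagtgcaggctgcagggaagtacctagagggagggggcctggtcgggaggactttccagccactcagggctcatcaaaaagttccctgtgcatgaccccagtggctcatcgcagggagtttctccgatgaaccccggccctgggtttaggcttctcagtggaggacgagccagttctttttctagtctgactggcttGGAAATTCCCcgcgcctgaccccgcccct
Rel, chr11:23770970-23771219, minus strand: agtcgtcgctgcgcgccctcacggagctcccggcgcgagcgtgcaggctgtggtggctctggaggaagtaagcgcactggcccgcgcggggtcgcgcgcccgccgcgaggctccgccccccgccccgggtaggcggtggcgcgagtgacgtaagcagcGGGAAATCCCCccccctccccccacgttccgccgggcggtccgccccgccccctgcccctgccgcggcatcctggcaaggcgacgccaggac
Tnfaip3, chr10:19015411-19015660, minus strand: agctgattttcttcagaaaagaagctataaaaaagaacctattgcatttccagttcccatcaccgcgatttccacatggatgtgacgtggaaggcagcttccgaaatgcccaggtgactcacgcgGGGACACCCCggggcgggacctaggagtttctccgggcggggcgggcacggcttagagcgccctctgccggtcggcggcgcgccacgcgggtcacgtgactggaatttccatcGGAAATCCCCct

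Among other genes of the pathway, the same motif stood in the windows of 11 of 23 known target genes, 5 of 10 further inhibitors, 4 of 15 adaptors and kinases, 3 of 12 receptors and 1 of 11 ligands. A match is a stretch of letters and not evidence of binding, and no measurement of binding was made in these sections.

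Spots were divided by their neural gene content into tumor mass, edge and neural tissue, without using any of the 10 genes. The edge was the band of spots within 2 steps of the border on either side. Section 1 held 787 tumor, 307 edge and 2157 neural spots, and section 2 held 880, 399 and 2619. The median depth was 53669 and 40203.5 UMIs per tumor spot, 15086 and 16347 per edge spot and 7587 and 9678 per neural spot. Depth thus moved with region, and levels below are therefore UMIs of the gene per 1000000 UMIs of the region (CPM). Levels by region in the paragraphs on each member and on the other pathway genes are CPM after TMM scaling. Sums over lists, bands of steps and ranked spots are CPM without scaling factors. The masses of the sections were not alike. In the tumor of section 2, 12 epithelial markers summed to 10819 CPM, against 228 in its neural tissue. In that of section 1 they summed to 53.2, near the 49.0 of its neural tissue, while 10 fibroblast markers summed to 56748, against 719 in the tumor of section 2. The mass of section 1 is thus rich in collagen genes, and its sum of epithelial markers was near that of neural tissue, against its label as a breast tumor. Single markers differed. Krt8 was at 22.2 CPM in that mass against 4.92 in neural tissue, but at 1524 in the tumor of section 2, and Krt14 was at 2.18 against 1.89. Because the masses differ, levels of the members are given below for both sections. Some fold changes, of members and of other genes, come only from the fit of both sections together. Section 2 had 2 separate masses, of 952 and 130 spots, with the members at 679 and 643 CPM in sum.

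**Figure D1:**
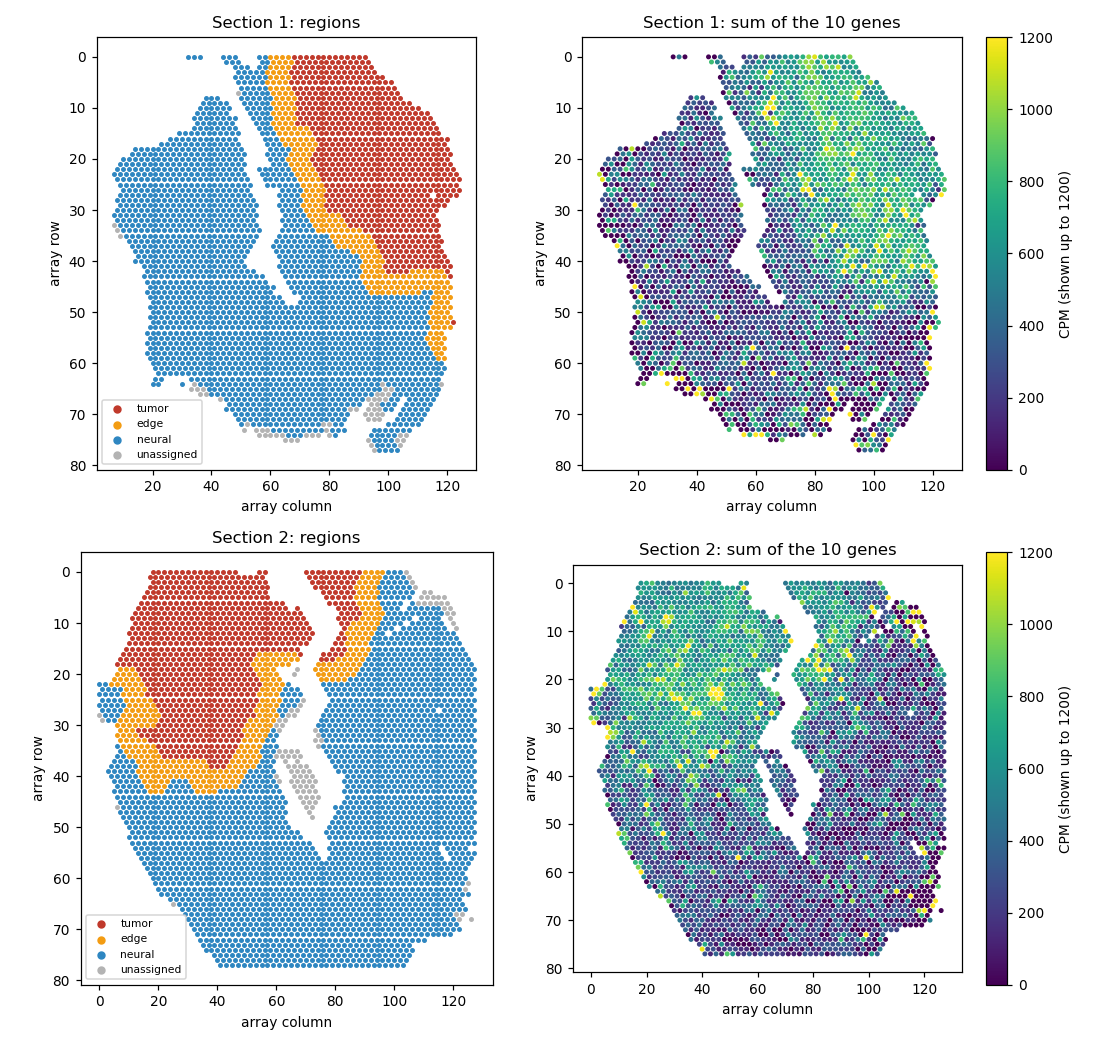
Maps of both sections by array row and column. The left panels show the region of each spot and the right panels the summed level of the 10 genes in CPM. Over the tumor the sum was 743 in section 1 and 677 in section 2, and over neural tissue 303 and 302.

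All 10 genes were higher in the tumor than in the neural tissue of both sections. Together they made up 743 CPM of the tumor in section 1 and 677 in section 2, 621 and 623 at the edge, and 303 and 302 in neural tissue. In edgeR's quasi-likelihood test on UMIs summed by section and region, with Benjamini-Hochberg adjustment over 19226 genes, 10 of 10 passed as higher in tumor than in neural tissue, where 14.5% of all genes tested did. The adjusted p ranged from 0.0030 to 0.0194, and the median log2 fold change of the members was 2.05, against -0.12 over all genes. The tumor values of both sections lay above both neural values for 10 of 10 members, as they did for 28.9% of all genes. When libraries were scaled by size alone, the median over all genes was -0.43 in place of -0.12, and the count stayed at 10 of 10. With neural spots within 12 steps of the border alone the count was also 10, but the log2 fold change of Bcl3 was 0.85 in place of 1.89, that of Nfkb2 2.22 in place of 2.94 and that of Birc3 2.15 in place of 2.82 (edgeR, adjusted p = 0.0490, 0.0138 and 0.0395). A higher level in a region may come from more cells of a type or from more RNA per cell, and these cannot be told apart here.

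**Figure D2:**
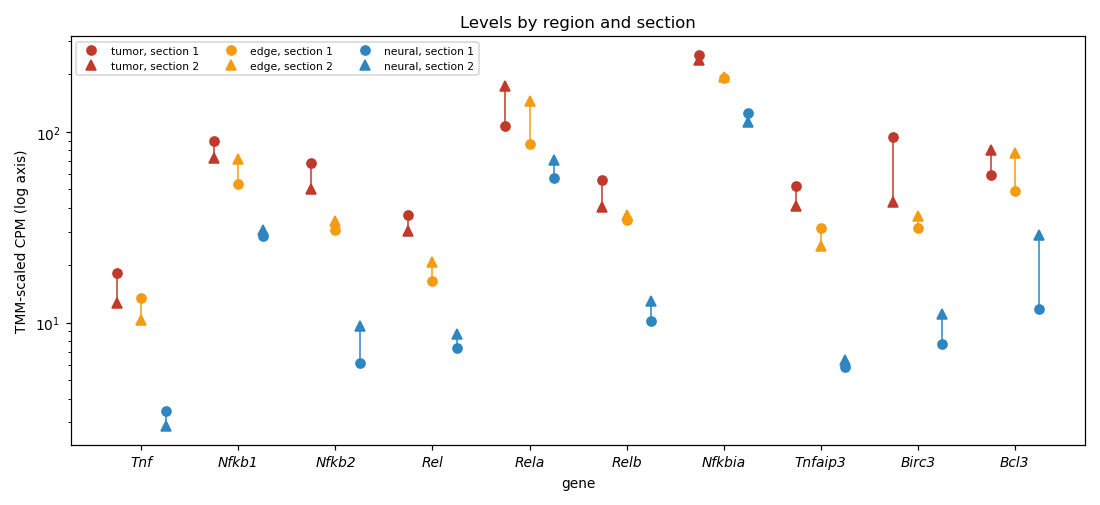
Levels of the 10 genes in CPM after TMM scaling (log axis), with circles for section 1, triangles for section 2 and colours for the regions. The lines join the 2 sections. For each gene both tumor values and both edge values lie above both neural values.

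Tnf encodes the cytokine that gave the receptor family its name and starts the canonical pathway. Its level was low throughout, at TMM-scaled CPM of 18.2 (section 1) and 12.7 (section 2) in the tumor, 13.5 and 10.3 at the edge and 3.43 and 2.87 in neural tissue. Both tumor values and both edge values were thus well above the neural ones, and tumor and edge overlapped. The log2 fold change was 2.27 ± 0.28 (SE, n = 2 sections) for tumor against neural tissue (edgeR's quasi-likelihood test, adjusted p = 0.0065) and 1.90 ± 0.28 for edge against neural tissue (adjusted p = 0.0336). A Tnf UMI was seen in 50.3% and 31.2% of tumor spots, which were the deepest, and in 3.34% and 2.98% of neural spots.

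The subunits fall into those of the canonical arm and those of the alternative arm. Rela encodes the p65 subunit, the main activating partner of the canonical dimer. It stood at 107 and 173 TMM-scaled CPM in the tumor, 86.2 and 145 at the edge and 57.2 and 71.4 in neural tissue. It was higher in section 2 than in section 1 in each region, and after this scaling the regions kept the same order within each section. Without the scaling factors, the tumor of section 1 (95.5) was below its edge (99.6). The log2 fold change of tumor over neural tissue was 1.09 ± 0.21 (edgeR's quasi-likelihood test, adjusted p = 0.0194). At the edge it was 0.80 ± 0.21, which did not pass (edgeR, adjusted p = 0.0868).

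Nfkb1 encodes the p105 precursor of p50, the usual partner of p65. Its level was 89.99 and 72.5 in the tumor, 53.1 and 72.3 at the edge and 28.3 and 30.4 in neural tissue, all as TMM-scaled CPM. In section 2 tumor and edge were nearly the same, whereas in section 1 the tumor stood above the edge. Its log2 fold change over neural tissue was 1.47 ± 0.25 in the tumor (edgeR's quasi-likelihood test, adjusted p = 0.0144) and 1.09 ± 0.25 at the edge (adjusted p = 0.0687, not called). Rel encodes c-Rel, a subunit best known from lymphocytes and myeloid cells. It reached 36.6 and 30.1 in the tumor, 16.6 and 20.7 at the edge and 7.38 and 8.77 in neural tissue, and the 3 regions did not overlap. The log2 fold change was 2.05 ± 0.28 in the tumor (edgeR, adjusted p = 0.0083) and 1.21 ± 0.28 at the edge (adjusted p = 0.0697, not called).

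Nfkb2 and Relb encode the dimer of the alternative arm, p100 (the precursor of p52) and RelB, and both are also known targets of the canonical arm. Nfkb2 was at 69.0 and 50.4 TMM-scaled CPM in the tumor, 30.6 and 33.9 at the edge and 6.16 and 9.62 in neural tissue, with no overlap between regions. Its log2 fold change over neural tissue in the tumor, 2.94 ± 0.34, was close to those of Tnfaip3 and Birc3 (edgeR's quasi-likelihood test, adjusted p = 0.0055), and was 2.04 ± 0.33 at the edge (adjusted p = 0.0373). Relb was at 55.6 and 40.1 in the tumor, 34.6 and 36.8 at the edge and 10.2 and 13.03 in neural tissue. Its log2 fold change was 2.04 ± 0.29 in the tumor (edgeR, adjusted p = 0.0089) and 1.62 ± 0.28 at the edge (adjusted p = 0.0418). Map3k14, which encodes the kinase NIK that triggers the processing of p100, was at 38.0 and 43.9 in the tumor and 8.09 and 14.7 in neural tissue (log2 fold change 1.91, edgeR, adjusted p = 0.0094).

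Nfkbia encodes IκBα, the inhibitor that is destroyed on activation and then made anew under NF-κB control. It stood at 253 and 239 TMM-scaled CPM in the tumor, 191 and 194 at the edge and 125 and 113 in neural tissue, and 65.6% and 66.7% of neural spots held a UMI. After this scaling the sections were close to each other in every region, and the regions did not overlap. Without the scaling factors, tumor (225 and 207) and edge (221 and 185) overlapped. The fold was the smallest of the members, 1.05 ± 0.19 on the log2 scale for tumor over neural tissue (edgeR's quasi-likelihood test, adjusted p = 0.0168) and 0.70 ± 0.19 for edge over neural tissue (adjusted p = 0.0951, not called).

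Tnfaip3 encodes A20, an enzyme that edits ubiquitin chains and shuts off signalling below the TNF and Toll-like receptors. It was at 51.8 and 40.8 in the tumor, 31.5 and 25.1 at the edge and 5.88 and 6.38 in neural tissue. The neural values of the sections were alike, and the regions did not overlap. Without the scaling factors, tumor (46.1 and 35.4) and edge (36.3 and 24.0) overlapped. Its log2 fold change was 2.90 ± 0.25 in the tumor (edgeR's quasi-likelihood test, adjusted p = 0.0030) and 2.19 ± 0.25 at the edge (adjusted p = 0.0306), with the lowest adjusted p of the members in both comparisons.

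Birc3 encodes cIAP2, a ubiquitin ligase at the TNF receptor that protects cells from death. It showed the widest gap between the masses, with 94.1 in the tumor of section 1 and 42.9 in that of section 2, whereas the edge (31.3 and 36.1) and neural tissue (7.76 and 11.1) were closer. The log2 fold change within section 1 was 3.52 and within section 2 it was 1.90. In the fit it was 2.82 ± 0.49 for the tumor (edgeR's quasi-likelihood test, adjusted p = 0.0171) and 1.82 ± 0.47 for the edge (adjusted p = 0.0912, not called).

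Bcl3 encodes an atypical IκB protein of the nucleus, which binds p50 and p52 dimers and changes what they do on DNA. It was at 59.3 and 79.9 in the tumor, 49.3 and 77.9 at the edge and 11.8 and 28.8 in neural tissue. Section 2 was higher in each region, tumor and edge were close within each section, and neural tissue was lower than both. The log2 fold change was 1.89 ± 0.28 in the tumor (edgeR's quasi-likelihood test, adjusted p = 0.0102) and 1.72 ± 0.28 at the edge (adjusted p = 0.0366).

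**Figure D3:**
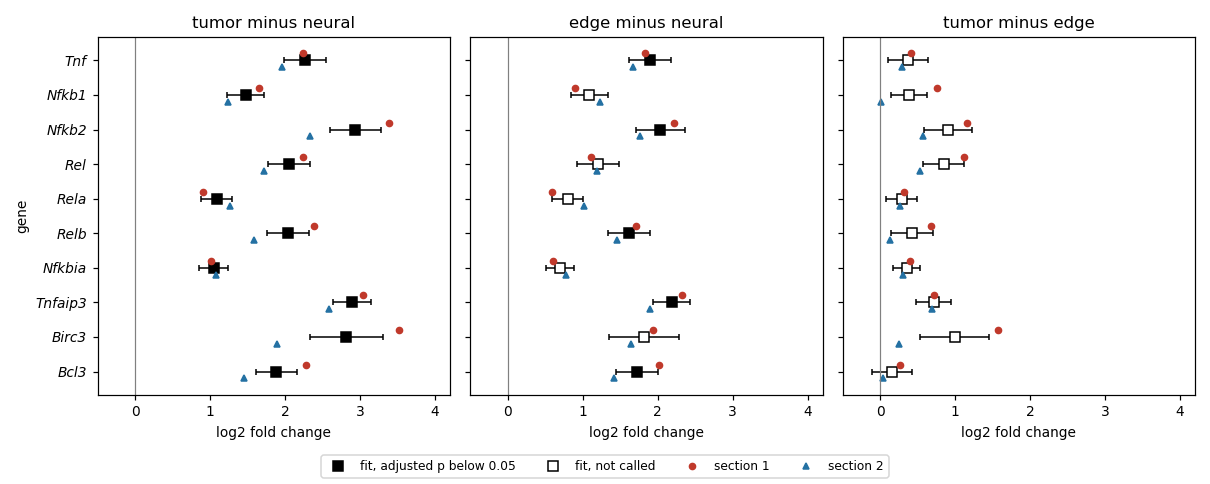
Log2 fold change of each gene between regions. Squares with bars show the fit and its SE (filled where the adjusted p is below 0.05), circles the fold within section 1 and triangles that within section 2. All 10 genes are filled for tumor minus neural, 5 for edge minus neural and none for tumor minus edge.

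At the edge, 5 of 10 members passed as higher than neural tissue in edgeR's quasi-likelihood test, namely Tnf, Nfkb2, Relb, Tnfaip3 and Bcl3, where 3.67% of all genes did. The other 5 had log2 fold changes of 0.70 to 1.82 with adjusted p from 0.0687 to 0.0951, and all 10 had an unadjusted p below 0.05, as did 26.5% of all genes in either direction. The edge values of both sections lay above both neural values for 10 of 10 members (23.8% of all genes). DESeq2 called 10 of 10, and 9.66% of all genes as higher. The calls ended when only neural spots within 12 steps of the border were used, or when only the spots of the tumor and edge with the lower share of immune markers were kept, but under either setting the edge comparison called 0 of all genes in edgeR. At an unadjusted p below 0.05 there were 3795 genes with the near neural spots and 3454 with the immune-poor spots, with 9 of 10 members among them each time. The log2 fold changes of the 5 called members were then 0.70 to 1.68 and 1.56 to 1.97. Spots of the mass gave 2726184 of the 5007906 edge UMIs in section 1 and 4484111 of 7428493 in section 2. For a gene that differs between tumor and neural tissue, a level between them at the edge can thus come from how the edge was drawn. The part of this in the edge levels was not tested.

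Between tumor and edge, 0 of 10 members passed in edgeR's quasi-likelihood test, where 0.151% of all genes passed as higher in the tumor and 4.31% as lower. At an unadjusted p below 0.05 there were 3 members (Nfkb2, Rel and Tnfaip3), where 20.9% of all genes lay in either direction, and DESeq2 called 1 (Rel), where it called 3.53% of all genes as higher. The log2 fold changes ran from 0.16 (Bcl3) to 0.99 (Birc3). After TMM scaling all 10 were higher in the tumor within each section, as were 33.7% of all genes, but without the scaling factors Rela and Bcl3 were lower in section 1 and Nfkb1, Relb and Bcl3 in section 2, so that 6 of 10 were higher in both. When the edge was split at the border, its tumor side exceeded its neural side by 0.26 to 0.85 on the log2 scale. None of these differences passed (edgeR, 0 of 19077 genes called, 2464 genes at an unadjusted p below 0.05), and the largest was that of Tnf (adjusted p = 0.289).

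Counted step by step from the border, the genes fell from the mass into the neural tissue at different distances. The following levels are CPM, pooled over bands of steps without scaling factors, with exact 95% Poisson intervals that cover counting error only. Nfkb2 in section 1 was at 67.6 (63.4 to 71.9) between 5 and 9 steps inside the mass, 42.9 in the outer 4 steps of the mass, 24.98 in the first 4 steps of neural tissue, 10.3 at 5 to 8 steps and 4.71 (3.49 to 6.23) beyond 20 steps. In section 2 the same bands gave 41.1, 42.7, 23.9, 16.4 and 6.46. Nfkb2 thus fell over the first 8 steps of neural tissue in both sections and was lower still beyond 20 steps. In section 1 it already fell inside the rim.

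Tnfaip3 also fell over the first 8 steps of neural tissue. In section 1 it was at 45.6 in the outer 4 steps of the mass, 22.3 in the first 4 steps of neural tissue and 7.53 (4.53 to 11.8) at 5 to 8 steps, and in section 2 at 25.2, 19.2 and 10.3 (7.25 to 14.2). Beyond 20 steps it was 4.71 and 4.75. Within the mass of section 2 it was at 41.3 (37.9 to 44.8) between 5 and 9 steps, above the 25.2 (22.1 to 28.5) of the outer 4 steps. In section 1 the bands of the mass were even (45.6 to 47.5), but the rings at 20, 19 and 18 steps were lower (29.4, 35.2 and 35.8).

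Rela and Nfkbia had the shallowest slopes. Rela in section 1 went from 105 in the outer mass to 93.0, 81.6, 73.0, 67.0 and 55.5 over the 5 neural bands, and in section 2 from 147 to 108, 85.7, 88.6, 72.8 and 63.7. Nfkbia went from 219 to 189 and 132 (118 to 146) within the first 8 steps in section 1 and then stayed between 142 and 147, and in section 2 from 189 to 162 and 126 and then stayed between 104 and 114.

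Bcl3 differed most between the sections. In neural tissue of section 1 it was at 54.5 (47.8 to 61.8) in the first 4 steps, 21.8 (16.4 to 28.4) at 5 to 8 steps, 10.8 at 9 to 12 steps and 4.33 (3.16 to 5.79) beyond 20 steps. In section 2 it stayed at 66.7, 55.1 (47.7 to 63.3) and 54.0 (46.0 to 63.0) over those 12 steps, was 34.6 at 13 to 20 steps and 10.1 (8.49 to 11.9) beyond. The intervals of the sections did not overlap in any band from 5 steps outward. Within the mass, Bcl3 of section 1 was lower in the depth (44.8, 41.8 to 47.8, deeper than 9 steps) than in the outer 4 steps (63.4, 57.7 to 69.6), and reached 27.0 at 20 steps. In section 2 it was 70.7 in the depth and 75.9 in the outer steps, with intervals that overlapped.

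Birc3 ran the other way in the mass of section 1, from 49.4 (44.3 to 54.9) in the outer 4 steps to 83.4 at 5 to 9 steps and 89.99 (85.8 to 94.3) deeper, and in section 2 it was flat at 34.4, 36.9 and 39.5. Rel rose inward in both sections. It went from 22.4 (19.1 to 26.2) in the outer steps to 33.6 (31.0 to 36.2) in the depth of section 1. In section 2 it went from 22.2 (19.4 to 25.4) to 28.5 (25.7 to 31.4). Tnf of section 1 was higher in the outer 4 steps (19.4, 16.3 to 23.0) than deeper than 9 steps (13.8, 12.2 to 15.6). That of section 2 was 9.40 in the outer steps and 11.7 in the depth, with overlapping intervals.

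**Figure D4:**
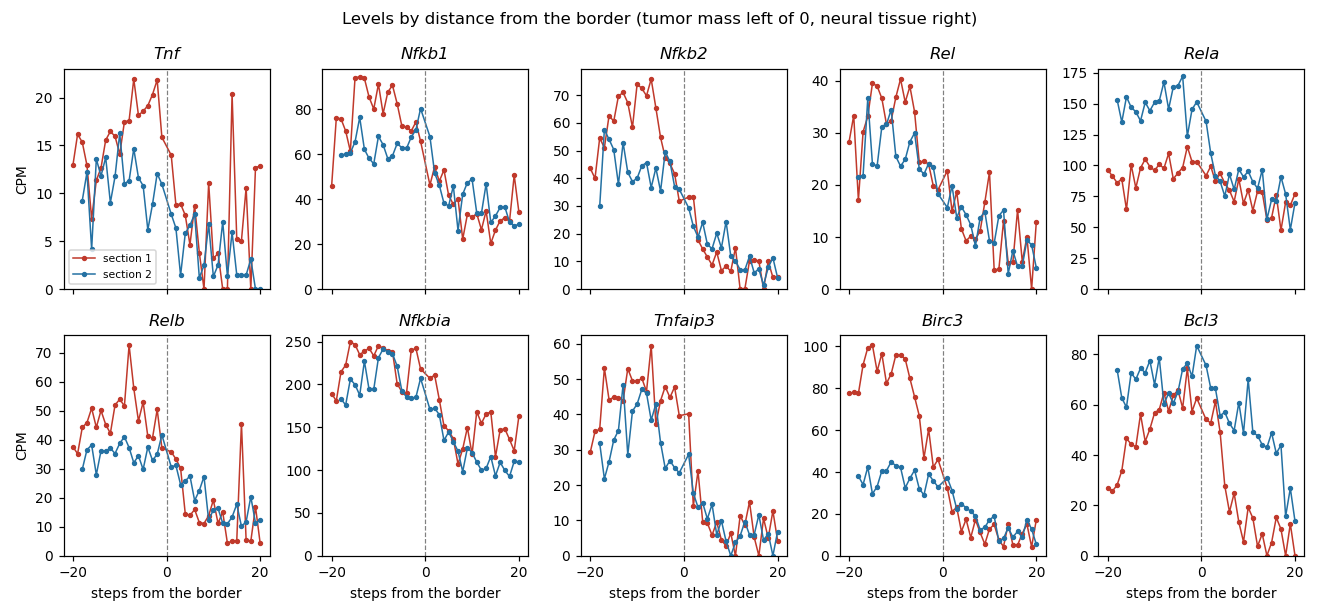
Level of each gene in CPM by steps from the border in section 1 (red) and section 2 (blue), over rings of at least 20 spots within 20 steps. Steps in the mass are negative and those in neural tissue positive, and the dashed line is the border. Bcl3 stays high over 12 steps of neural tissue in section 2 and falls within 8 steps in section 1, and Birc3 rises inward in the mass of section 1.

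Markers of other cell types moved with the regions. The 10 macrophage markers summed to CPM of 4494 (section 1) and 1129 (section 2) in the tumor, 4837 and 3200 at the edge and 767 and 927 in neural tissue, with none of them at 0. T cell markers summed to 339 and 17.3 in the tumor and B and plasma cell markers to 770 and 20.3, so both lists were far higher in the tumor of section 1. At the edge the sum of the B and plasma cell markers went the other way, at 64.3 in section 1 and 220 in section 2. Igkc was at 27.6 and 183 there, whereas Cd79a (7.59 and 2.02) and Mzb1 (2.80 and 2.29) were not higher in section 2. The 6 astrocyte markers were lower in the tumor (1421 and 3981) than in neural tissue (3670 and 6321). In section 2 they were not confined to neural tissue, since the tumor stood slightly above the tumor side of the edge (3897). The 26 neural genes fell there from 25272 in neural tissue to 1292 in the tumor. Rankings by this list are thus rankings by these genes and not by a count of astrocytes. When only the tumor and edge spots with the lower share of immune markers were kept, the comparison of tumor with neural tissue called 10 of 10 members as higher, and 10.2% of all genes. The part of each cell type in the levels was not tested.

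To describe which spots held the genes, the spots of a region were ranked by their share of a marker list, cut into 5 equal parts, and the top part was set against the bottom part within each section, for 13 lists. None of the lists holds a member. In neural tissue ranked by macrophage markers, Bcl3 was at 36.4 CPM (30.8 to 42.7) in the top part and 6.18 (3.72 to 9.66) in the bottom part of section 1, and at 66.6 and 8.47 in section 2, ratios of 5.88 and 7.86. Birc3 followed with ratios of 2.79 and 4.44, Relb with 2.56 and 3.68 and Nfkb2 with 2.04 (intervals overlapping) and 4.09. Nfkbia (1.24 and 1.52) and Rela (1.58 and 1.46) differed least among the members whose intervals were apart in both sections. Rel and Tnf overlapped between the parts in both sections, and 7 of 10 members were apart in both, where 13.1% of genes counted at least as often as the lowest member were.

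Astrocyte markers gave the same order at the top, with Bcl3 at 34.1 and 6.39 in section 1 and 46.5 and 4.81 in section 2, ratios of 5.35 and 9.66, and Birc3 at 2.44 and 3.16. The macrophage-rich spots lay near the mass, at a median of 6 and 8 steps from the border against 32 and 31 in the bottom part, so the ranking also sorted spots by distance. Beyond 12 steps the Bcl3 ratio in section 1 was 1.76 for macrophage and 1.64 for astrocyte markers, with overlapping intervals. In section 2 it was 5.56 and 10.0, with intervals apart, at a median of 19 steps in the top part of both rankings. Distance and marker content were not separated further.

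Nfkbia alone of the members stood apart with the oligodendrocyte markers in both sections. So did 11.1% of the genes with at least as many UMIs in these spots as the least counted member. A call for 1 member is thus not more than that share. Nfkbia also had the most UMIs of the members in neural tissue (2665 in section 1 and 3344 in section 2). Its counting intervals were therefore the narrowest for its level, and the values only describe this gene. In section 1 Nfkbia was at 178 (163 to 193) in the top part of neural spots and 107 (96.3 to 118) in the bottom part. In section 2 it was at 143 and 98.2. The top and bottom parts lay at a median of 25 and 13 steps in section 1 and of 23 and 24 steps in section 2.

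**Figure D5:**
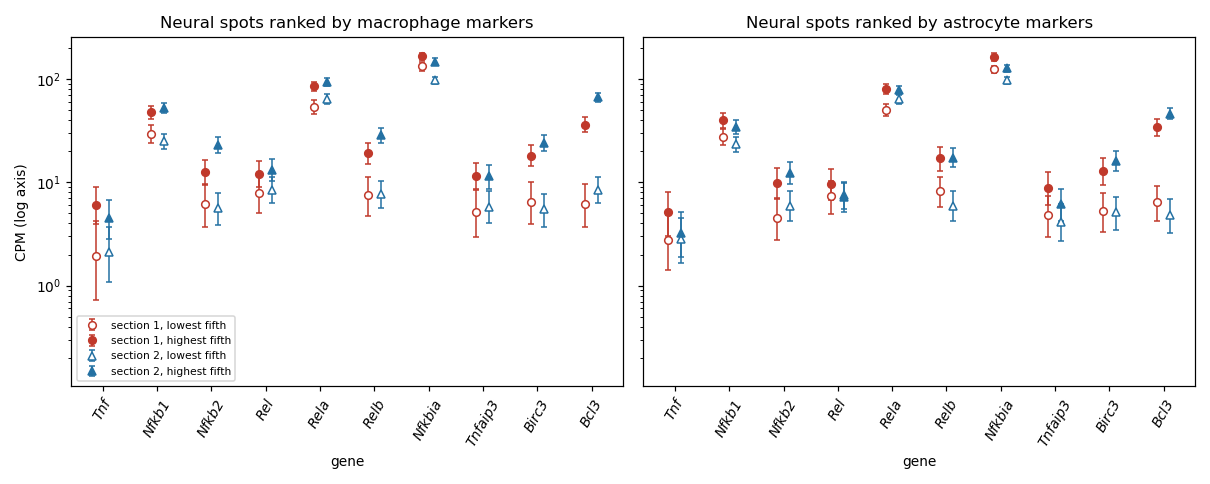
Level of each gene in CPM (log axis) in the neural spots with the highest (filled) and lowest (open) share of macrophage markers (left) or astrocyte markers (right), with 1 of 5 equal parts of the spots in each. Bars are exact 95% Poisson intervals for counting error, circles are section 1 and triangles section 2. Bcl3 has the widest gap in each panel.

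In the tumor of section 1, the spots richest in T cell markers held more Birc3 than the poorest (102, 95.4 to 109, against 61.5, 55.8 to 67.7) and more Nfkb2 (70.5 against 48.2), and 7 of 10 members had intervals apart, with ratios of 1.18 to 1.66, as did 15.1% of the genes counted at least as often as the lowest member. These spots lay deeper, at a median of 11 steps against 4. In section 2 the T cell markers were lower in the tumor (17.3 in sum) than in neural tissue (36.4) and at 0 in the bottom part, so its tumor spots could not be ranked by them in a useful way.

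In section 2, the spots richest in epithelial markers held more Tnf (15.3, 12.7 to 18.2) than the poorest (7.88, 5.65 to 10.7) and more Tnfaip3 (41.3 against 23.3), with ratios of 1.94 and 1.78, and Nfkbia and Rela followed at 1.26 and 1.27. Ranked by macrophage markers, the same tumor had less Tnfaip3 in the top part (24.6, 20.4 to 29.3) than in the bottom part (39.4, 35.0 to 44.3), a ratio of 0.62, whereas in section 1 the ratio was 1.31 (50.3 against 38.4). The top and bottom parts of the macrophage ranking lay at 5 and 11 steps from the border in section 2, and at 7 and 11 in section 1. The share of all genes with intervals apart was not computed for these epithelial and macrophage rankings of tumor spots, so the ratios only describe the genes named. Spots were not matched for distance, and Tnfaip3 in the mass of section 2 also differed by distance (41.3 at 5 to 9 steps, 25.2 in the outer 4).

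Among the other genes of the pathway, 16 ligands of the TNF and interleukin-1 families were examined. In edgeR's quasi-likelihood test 2 of 16 were higher in tumor than in neural tissue (median log2 fold change 0.62), a share near the 14.5% of all genes, and 2 were higher at the edge (3.67% of all genes). Il1b, which encodes interleukin-1β, was at 17.4 and 26.9 TMM-scaled CPM in the tumor, 23.5 and 48.0 at the edge and 3.81 and 7.53 in neural tissue, so that it was higher at the edge than in the tumor of each section. Its log2 fold change over neural tissue was 2.02 in the tumor and 2.65 at the edge (edgeR, adjusted p = 0.0067 and 0.0306). Tnfsf10, the gene of the death ligand TRAIL, passed in the tumor (1.75) and Il1a at the edge (1.71). Within sections 1 and 2 the log2 fold change of Tnfsf10 was 2.11 and 1.14, and that of Il1a 1.78 and 1.41.

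Of 15 receptors, 8 were higher in the tumor (14.5% of all genes) and 4 at the edge (3.67%) than in neural tissue, and none was called lower. Tnfrsf1b, the gene of TNF receptor 2, was at 105 and 67.0 in the tumor, 80.5 and 80.7 at the edge and 10.9 and 16.4 in neural tissue (log2 fold changes 2.65 and 2.56, edgeR's quasi-likelihood test, adjusted p = 0.0081 and 0.0322). Tlr4, which encodes the receptor for bacterial lipopolysaccharide, had log2 fold changes of 2.59 and 1.83, in tumor and edge. Cd40 was among the 3 largest changes in the tumor (2.45) and Ltbr, the lymphotoxin beta receptor gene, among those at the edge (1.57). Within sections 1 and 2 the log2 fold change of Cd40 was 3.03 and 1.44, and that of Ltbr 1.65 and 1.47. Il1rap, which encodes the shared accessory chain of the interleukin-1 receptors, was the only gene of these 5 lists that edgeR called between tumor and edge. It was lower in the tumor, at 30.3 and 42.6 against 98.3 and 93.5 at the edge (log2 fold change -1.41, edgeR, adjusted p = 0.0428). Of all genes, 4.31% were called lower in the tumor than at the edge, so 1 call over these lists is not more than that share.

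Of 20 adaptors and kinases, 12 were higher in the tumor (14.5% of all genes) and 0 were called at the edge by edgeR (3.67%). At the edge 10 were higher at an unadjusted p below 0.05, where 12.3% of all genes were, and DESeq2 called 7 as higher, where it called 9.66% of all genes. Among the largest changes were those of Irak4 (1.97, with 2.49 and 1.31 within sections 1 and 2), which encodes a kinase below the Toll-like receptors, and of Map3k14. Of 14 further inhibitors, 5 were higher in the tumor (14.5% of all genes) and 2 at the edge (3.67%). Nfkbiz, the gene of another nuclear IκB protein, had a log2 fold change of 2.52 in the tumor and 1.61 at the edge. Zc3h12a, which encodes the RNase Regnase-1, had 2.07 and 1.73, and Tnip2, whose product binds A20, had 1.57 in the tumor. Nfkbiz, like Rela and Bcl3, was higher in section 2 (196 in the tumor) than in section 1 (94.4).

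Of 29 known target genes in the files, 12 were higher and 1 lower in the tumor, where 14.5% and 15.9% of all genes were, and 9 were higher at the edge (3.67% of all genes). Plau, the gene of the urokinase plasminogen activator, had the largest change, from 6.39 and 9.04 in neural tissue to 134 and 164 in the tumor and 109 and 111 at the edge (log2 fold changes 4.27 and 3.85, edgeR's quasi-likelihood test, adjusted p = 0.0017 and 0.0306). Mmp9, which encodes a gelatinase, was far apart between the masses, at 343 and 38.9 (log2 fold change 3.58), and Irf1, a transcription factor gene, was at 308 and 147 (3.49). Ccl2, the gene of a monocyte chemokine, and Bcl2a1b, a survival gene with near-identical copies whose counts are uncertain, were the next largest at the edge (3.16 and 2.71). Within sections 1 and 2 the log2 fold change of Ccl2 was 3.69 and 2.45, and that of Bcl2a1b 2.71 and 2.51. The target lower in the tumor was Sod2, the mitochondrial superoxide dismutase gene, at 132 and 136 against 324 and 308 in neural tissue (log2 fold change -1.24, adjusted p = 0.0124 by edgeR). It was named after its value was seen.

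Across 138 rings of steps from the border, the genes most like each member were listed as a description, with no p, since the rings share sections, depth and the border itself. Bcl3 was most like Cd9, Stat3 and Pik3ap1 (Pearson r of log2 levels 0.86, 0.86 and 0.84), and Birc3 most like Psme1, Mob1a and Rnase4 (0.85, 0.84 and 0.84). Rela was most like Anxa3, Tnc and H3f3b (0.88, 0.86 and 0.86), and Nfkb2 most like Ptbp1, Myh9 and Msn (0.82, 0.81 and 0.81). The remaining 6 members had their highest r between 0.73 (Tnf with Galk1) and 0.83 (Relb with Actb). Among the members themselves, Nfkb2 and Relb were the most alike pair (0.76), and Nfkbia and Bcl3 the least (0.43). Many neural rings held few UMIs of the low members, such as Tnf, and counting error then limits r. The size of r is thus not comparable between members of different counts.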

How the data were processed

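The deposited counts are UMI counts per gene and spot, made by the authors with Space Ranger 2.1.1 on mm10. The 2 matrices hold 63986887 UMIs over 3406 spots and 71878333 UMIs over 4017 spots, and 3315 and 3999 spots had at least 500 UMIs and 10 genes. The array barcodes of the sections overlap (3096 shared), because they mark positions on the slide, not cells. The labels name 2 biological replicates without further detail on the animals.

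A neural score was computed per spot as the mean log2 level of 26 neural genes and split by Otsu's threshold in each section (1.43 and 1.41), smoothed by a majority vote over neighbours. Connected low-score spots in groups of at least 50, with choroid plexus markers under 1% of UMIs, were the mass. The edge lay within 2 steps of the border, and 64 and 101 spots were unassigned, among them a choroid plexus of section 2. The clusters of the study were not used here. The UMIs of each region of each section were added up to 6 libraries, fitted with edgeR 4.0.16 (R 4.3.3, quasi-likelihood, TMM factors 0.867 to 1.16, filterByExpr, section as a block, 2 residual degrees of freedom, Benjamini-Hochberg, threshold 0.05). The SE is the log2 fold change divided by the root of F, and folds within a section used a pseudocount of 0.5. Same-numbered libraries are regions of the same section and thus of the same mouse, which is where the pairing comes from. DESeq2 1.42.0 was an alternative. The test was first run on simulated data. Python 3.11.15 and scipy 1.17.1 gave the intervals. Promoter windows came from RefSeq (GRCm38.p6), the assembly that mm10 denotes.

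All 10 members are named, and of each other list the 3 largest called changes in each comparison. One gene that this rule names is not reported here. The members and the lists were chosen with earlier results of these data known. Of the 30 genes of the target list, 29 were analysed here.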

Additional observations from a re-analysis of the deposited data

How the results depend on the processing

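The count of members called for tumor against neural tissue was 10 under every alternative run except the fit without the replicate block, where it was 9 (Rela, adjusted p = 0.0801 by edgeR). For edge against neural tissue the count was 5 in the fit described and 4 to 6 under most alternatives. It was 10 with DESeq2 and with the edge split into 2 sides. The split fit held more libraries from the same 2 mice, and called 1754 of 19077 genes as higher, against 705 of 19226 in the fit described. The count was 0 with neural spots within 12 steps. It was also 0 with the spots of the tumor and edge poorest in immune markers, an alternative chosen after seeing the data. Without the block it was 4, with Bcl3 lost (adjusted p = 0.103 by edgeR), and with an edge of 1 step also 4, with Relb lost (adjusted p = 0.0533). With RLE factors it was 6, with Nfkb1 gained (adjusted p = 0.0495). For tumor against edge it was 0, and 1 with DESeq2. The direction of single members reversed once, in Bcl3 for tumor against edge with library size only (log2 fold change -0.11, adjusted p = 0.840 by edgeR). Leaving out a section leaves no residual degrees of freedom, so it gave values with no test. The block changed no other call. Of the single-gene values, 420 were counted as the same, and 12 gained and 13 lost a call. The same meant an unchanged direction and side of the threshold. Values with a section left out had no test, and were the same if no farther from the fitted value than the spread. The fitted value lies near the middle of the 2 section values, so this label was nearly fixed in advance. For these values it says nothing of stability. That spread, the SD of the 2 section values, is small where the sections are close. A move beyond it thus does not mark an unstable gene. With a section left out, 4 values moved beyond it. These were Tnf without section 1 (1.97 for tumor and 1.68 for edge, both against neural tissue), Tnfaip3 without section 1 (0.69 for tumor against edge) and Rel without section 2 (1.12 for edge against neural tissue). Moves of over 1.5-fold came from leaving out section 1 for Nfkb2 (2.33 for tumor against neural tissue) and either section for Birc3 (1.90 and 3.52, and 0.25 for tumor against edge without section 1). With neural spots within 12 steps, Nfkb2, Birc3 and Bcl3 at the edge were at 1.32, 1.16 and 0.70.

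Over all genes, calls for tumor against neural tissue were 2784 higher and 3059 lower, against 2004 and 4544 with library size only, 3350 and 2763 with RLE factors and 4271 and 3032 with DESeq2. For edge against neural tissue they were 1503 in all, against 3572 with DESeq2, 3854 with the edge split and 0 under the settings named above. For tumor against edge they were 857, against 2158 with DESeq2, 2219 with the edge split and 0 with the immune-poor spots. The common dispersion was 0.0914, and 0.151 when the section was not in the model. In the simulated data, with 100 genes changed 2-fold and 100 changed 4-fold in the tumor, the test recovered 3% and 77% of them. The simulation gave every gene the common dispersion and changed few genes, so its shares need not hold for these sections. Here Nfkbia (1.05) and Rela (1.09) were called between tumor and neural tissue. Low counts limit Tnf in neural tissue, where 73 and 85 UMIs were counted in all.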
